A study of Mus musculus with 4 samples.

Results

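Receptor tyrosine kinases are cell-surface proteins that bind a growth factor or a matrix or cell-bound ligand outside the cell and phosphorylate tyrosines on themselves and on signalling proteins inside it. The mRNAs of 10 of them were followed here, chosen by gene symbol: Pdgfra, Pdgfrb, Fgfr1, Egfr, Igf1r, Insr, Met, Axl, Ddr1 and Ephb4. All 10 are among the 49568 gene symbols of the deposited table. Ddr2, the paralog of Ddr1, was kept apart and serves as a point of comparison.

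The series profiled the RNA of purified migrasomes, vesicles that form on the retraction fibres left behind by a migrating cell, and of cytosol, both of mouse origin. Each group had 2 libraries, so n = 2 throughout. No source used here gives the genotype, the treatment, the type of cell, the way the migrasomes were purified, or whether the libraries came from separate cultures. The p-values therefore reflect the spread among these 4 libraries alone, and that spread may be technical.

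Between 5171092 and 8608369 reads per library were assigned to genes, and both cytosol libraries were deeper than both migrasome libraries. Values are deposited normalised read counts, in which 1 read is worth between 0.686 and 1.41 depending on the library. Differences are given on the scale of log2(value + 1), migrasome minus cytosol, which understates the change of low genes, with a standard error (SE). Of 8 fibroblast markers 6 were tested, and by limma the collagen genes Col1a1, Col1a2 and Col3a1 and the member Pdgfra fell, Vim rose and Thy1 did not pass, while Lum had no read in any library. The rise of Vim was lost with no filter, with quantile normalization and without either cytosol library. Summed over the list, the markers of epithelium stood between 0.686 and 2.83 in every library, those of endothelium between 0 and 5.26 and those of immune cells between 6.98 and 11.0. Krt18, Cldn4 and Cd3e had no read in any library. The 5 neural markers summed to 41.1 and 43.2 in cytosol and to 103 and 88.2 in migrasome, and Map2 and Snap25 among them rose, neither with DESeq2, with no filter, with every library scaled to the same total, without either cytosol library or without migrasome replicate 1. The 5 muscle markers summed to 224 and 117 in cytosol and to 348 and 172 in migrasome, with 0 past the test. The part of these marker genes in the results below was not tested.

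As background, the mRNA of a receptor tyrosine kinase is translated on the endoplasmic reticulum. A hydrophobic signal sequence at the start of the new protein directs the ribosome to that membrane. In the genetic code, codons with T (U in the mRNA) in the middle stand for hydrophobic amino acids, so a signal sequence can be seen in the coding sequence as a run of such codons. In fibroblasts and related cells these receptors are known for control of growth, survival and migration.

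The start of the coding sequence is shown for the pair of paralogs that went opposite ways (Ddr1 and Ddr2), for a member with a long run (Met) and one with few such codons (Axl), and for Ptpn11, which encodes a cytoplasmic phosphatase that binds activated receptors. The sequences run from the start codon through codon 26 and come from the GENCODE M21 transcripts (GRCm38), strand of the mRNA, with the codons after the start that have T in the middle in capitals.
Ddr1: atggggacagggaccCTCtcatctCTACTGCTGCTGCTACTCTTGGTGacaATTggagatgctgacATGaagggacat
Ddr2: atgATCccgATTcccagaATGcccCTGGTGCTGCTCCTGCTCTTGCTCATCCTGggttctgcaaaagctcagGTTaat
Met: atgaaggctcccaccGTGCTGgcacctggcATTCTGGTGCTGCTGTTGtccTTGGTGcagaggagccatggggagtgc
Axl: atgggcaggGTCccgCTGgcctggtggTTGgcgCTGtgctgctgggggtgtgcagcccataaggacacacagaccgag
Ptpn11: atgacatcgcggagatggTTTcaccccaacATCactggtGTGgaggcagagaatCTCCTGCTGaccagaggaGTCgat
Among codons 2 to 26, the largest number of T-middle codons in any 10 successive codons was 9 in Ddr1, 10 in Ddr2, 8 in Met, 4 in Axl and 4 in Ptpn11.

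The mRNAs of the receptor tyrosine kinases were lower in migrasome than in cytosol. Of the 10 members, 9 had enough reads to be tested, and all 9 fell by limma's test (adjusted p under 0.05, Benjamini-Hochberg over all 10860 genes tested), while 0 rose, also at an unadjusted p and with edgeR and DESeq2. Over all tested genes the share that fell was 17.7%. The median log2 difference was -1.86 for the 9 members and -0.0043 for all tested genes. Both migrasome libraries lay below both cytosol libraries for all 9, where 36.3% of all tested genes did so. Together the 10 members took 0.0491% and 0.046% of the reads in the cytosol libraries and 0.00874% and 0.017% in the migrasome libraries (replicates 1 and 2). In such material less RNA of a gene per vesicle and fewer vesicles that carry it cannot be told apart.

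**Figure D1:**
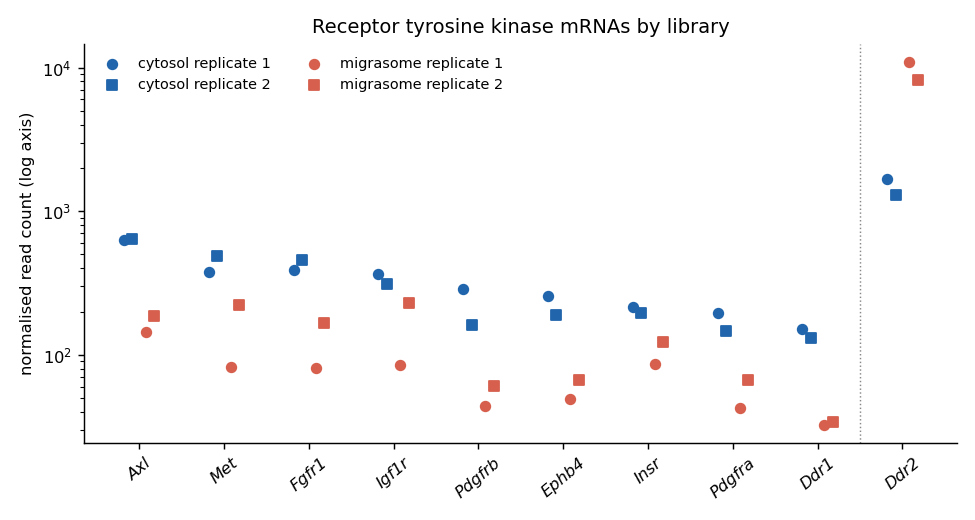
Normalised read count (log axis) of the 9 tested members and of Ddr2 in each library, cytosol in blue and migrasome in red, replicate 1 as circles and replicate 2 as squares. Each member's migrasome points lie below its cytosol points, whereas those of Ddr2 lie above.

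The receptors for platelet-derived growth factor, Pdgfra and Pdgfrb, drive the growth and migration of fibroblasts and other mesenchymal cells. Pdgfra (chr5:75152292-75198215, plus strand, GRCm38 with the GENCODE M21 annotation, as for all positions) stood at 194 and 145 in cytosol replicates 1 and 2 and at 42.4 and 67.1 in migrasome. It fell by 1.64 ± 0.30 (SE) on the log2 scale (limma adjusted p = 0.0043). An antisense gene model, Gm42802, overlaps 4.55% of its exon length, and no source used here states whether the counting used strand. Pdgfrb (chr18:61045150-61085061, plus strand) stood at 288 and 162 in cytosol and at 43.8 and 60.5 in migrasome. Its log2 difference was -2.05 ± 0.32 (limma adjusted p = 0.0018), among the largest falls of the 9. Its cytosol libraries differed by more than its migrasome libraries did, and the groups did not overlap.

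Fgfr1 encodes the main mesenchymal receptor for fibroblast growth factors (chr8:25513654-25575718, plus strand). Its values were 391 and 460 in cytosol and 80.6 and 166 in migrasome, a fall by 1.86 ± 0.32 on the log2 scale (limma adjusted p = 0.0028). Egfr, the receptor for epidermal growth factor (chr11:16752203-16918158, plus strand), was hardly detected. It had 1 read in cytosol replicate 1, 1 read in migrasome replicate 1 and 0 in the other two libraries. These counts lie under the limit of 3 reads that a count of 0 allows, which is 2.33 and 2.06 in cytosol and 4.24 and 3.95 in migrasome on the scale of the values, so no difference was detectable at this depth. Such a limit holds for counting error alone, as reads that carry no molecular identifier may be copies of 1 molecule.

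Igf1r and Insr, the receptors for insulin-like growth factor 1 and for insulin, showed the smallest falls of the 9. Igf1r (chr7:67952827-68233668, plus strand) stood at 367 and 312 in cytosol and at 84.9 and 229 in migrasome, so the migrasome libraries differed by 2.70 times. Its log2 difference was -1.27 ± 0.39 (limma adjusted p = 0.038). Without migrasome replicate 1 it was -0.56 and the call was lost (limma adjusted p = 0.084), and without migrasome replicate 2 it was -1.98. Wherever a library is left out, the other one of its group is alone and is assumed to vary like those of the other group, so a call kept there is no sign of stability. Insr (chr8:3122061-3279617, minus strand) stood at 214 and 195 in cytosol and at 86.3 and 122 in migrasome. It fell by 0.99 ± 0.26 on the log2 scale (limma adjusted p = 0.021) but did not pass once cytosol replicate 1 (limma adjusted p = 0.13) or 2 (limma adjusted p = 0.072) was left out. In reads of the same library, a ratio that no scaling changes, Igf1r stood at 1.71 and 1.60 times Insr in cytosol, and at 0.984 and 1.87 times Insr in migrasome replicates 1 and 2. The ratio in cytosol thus lay within the range of the ratio in migrasome.

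Met is the receptor for hepatocyte growth factor (chr6:17463800-17573980, plus strand), known for cell scattering. It stood at 375 and 488 in cytosol and at 82.0 and 224 in migrasome, with migrasome libraries 2.73 times apart. The fall was by 1.65 ± 0.40 on the log2 scale (limma adjusted p = 0.015). It was -0.93 without migrasome replicate 1 and -2.37 without migrasome replicate 2, and the call was lost with no filter and without a trend in the spread. Axl, which binds Gas6 on dying cells and vesicles (chr7:25757273-25788705, minus strand), had the highest values of the 9 in cytosol, at 629 and 635 in cytosol and at 143 and 187 in migrasome. Its fall by 1.95 ± 0.22 on the log2 scale had the smallest error among the 9 (limma adjusted p = 0.00055).

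Ddr1, a collagen receptor (chr17:35681567-35704621, minus strand), stood at 152 and 131 in cytosol and at 32.5 and 34.2 in migrasome. The migrasome values rest on 23 and 26 reads. It fell by 2.05 ± 0.27 on the log2 scale (limma adjusted p = 0.00083), and an antisense gene, Gm4577, overlaps 4.52% of its exon length. Ephb4, the receptor for the membrane-bound ligand ephrin-B2 (chr5:137350109-137378669, plus strand), stood at 258 and 188 in cytosol and at 49.5 and 67.1 in migrasome. It fell by 1.91 ± 0.28 on the log2 scale (limma adjusted p = 0.0012).

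Ddr2 also binds collagen (chr1:169972307-170110762, minus strand) and went the other way, at 1677 and 1305 in cytosol and 10902 and 8141 in migrasome. It was set beside Ddr1 because its rise was already known from these data, so the pair is a description with no test. For every read of Ddr1 a library held 11.0 and 9.96 reads of Ddr2 in cytosol (replicates 1 and 2) against 335 and 238 in migrasome. The paralogs thus moved apart within each migrasome library, whatever the scaling.

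The log2 differences of the 9 ran from -2.05 (Ddr1 and Pdgfrb) to -0.99 (Insr), that is, from 4.14-fold to 1.98-fold lower, and 8 of the 9 were at least 2-fold lower, a size that 16.3% of all tested genes reached. Between 2.85% (Ddr1) and 16.5% (Insr) of all tested genes had a more negative difference than a member. Whether the members differ from each other was not tested.

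Migrasome replicate 2 was above migrasome replicate 1 for all 9, by 1.05 times for Ddr1 and 2.73 times for Met at the extremes, whereas 51.6% of all tested genes were higher in that replicate. The reads of the 10 members, at 457 and 879, differed in the same direction between those libraries. Among the members, the migrasome libraries agreed best for Ddr1, Axl, Ephb4 and Pdgfrb and least for Igf1r, Met and Fgfr1. Leaving out each library in turn gave negative differences for every tested member. That outcome was certain, since the libraries of the groups did not overlap for any of them, so only the sizes inform.

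**Figure D2:**
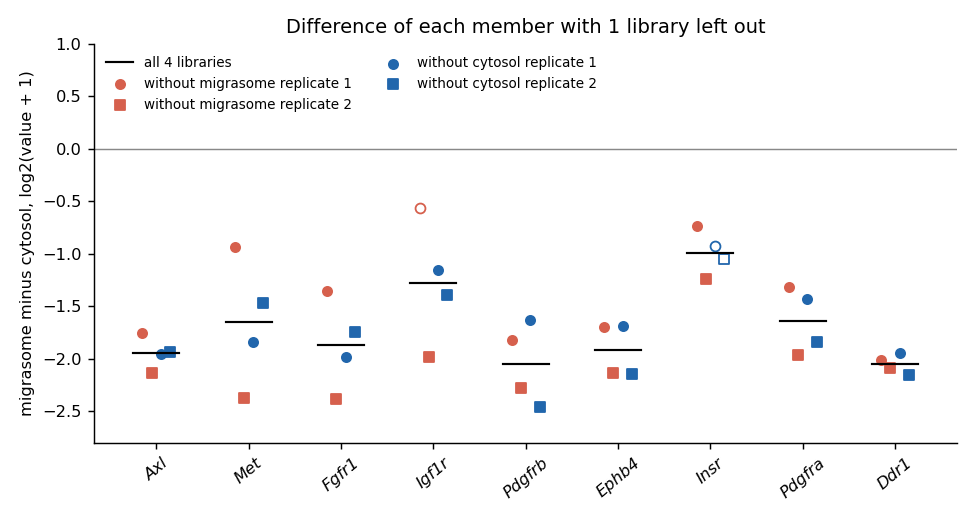
Migrasome minus cytosol difference (log2(value + 1)) of each tested member with all 4 libraries (black line) and with 1 library left out (points, coloured by the library's group, open where the limma adjusted p was 0.05 or more). All points lie below 0, as they must where the libraries of the groups do not overlap. Those without migrasome replicate 1 of Igf1r, Met and Fgfr1 lie closest to 0 for their gene.

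Levels of different genes were compared per kilobase of exon (the union of the annotated exons, between 4.64 and 16.8 kb for the 9). In cytosol Axl stood highest, at 126 ± 0.840 (SD, n = 2) per kb, clear of Met at 56.2 ± 10.3. Met, Ephb4 (48.0 ± 10.6), Fgfr1 (43.1 ± 4.91), Pdgfrb (41.0 ± 16.3) and Ddr1 (29.6 ± 3.12) followed, each overlapping its neighbour in this order. Igf1r (20.2 ± 2.31), Pdgfra (16.9 ± 3.42) and Insr (14.9 ± 0.959) came last, with Igf1r below the range of Ddr1 and overlapping Pdgfra. In migrasome Axl again stood highest, at 32.8 ± 6.19 per kb, but overlapped Met at 19.9 ± 13.0. The next were Ephb4 (12.6 ± 2.69), Fgfr1 (12.5 ± 6.10), Pdgfrb (9.53 ± 2.16), Igf1r (9.35 ± 6.07) and Insr (7.59 ± 1.86). Ddr1, at 6.99 ± 0.25, did not overlap Pdgfra, the last at 5.46 ± 1.74, and every other pair of neighbours overlapped. Ddr2 stood at 161 ± 28.4 per kb in cytosol and 1028 ± 211 in migrasome, above each member in both groups.

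The other receptor tyrosine kinases of the mouse, 48 including Ddr2, were mostly silent or low, and 10 were tested. Of these 6 fell, 1 rose (Ddr2) and 3 did not pass. Over all tested genes 8.68% rose and 17.7% fell. Epha2, a receptor for ephrin-A ligands, fell by 2.56 ± 0.38 on the log2 scale, from 725 and 844 in cytosol to 80.6 and 215 in migrasome (limma adjusted p = 0.0013). Erbb2, a partner of other receptors of the EGF family, had a log2 difference of -2.12 ± 0.26, Ephb3 of -1.73 ± 0.36, and Tyro3, a relative of Axl, of -1.66 ± 0.26. The kinases Styk1 (-1.73 ± 0.49) and Lmtk2 (-1.34 ± 0.35) fell too. Without migrasome replicate 1 the difference was -1.10 for Styk1, which no longer passed, and -0.72 for Lmtk2, and the median of the 10 moved from -1.69 to -0.91. With no filter the median of the list was 0.35, above 0, as it then covered 33 genes instead of 10, most of them low. Styk1 also did not pass without cytosol replicate 2, with no filter, with quantile normalization or without a trend, nor Lmtk2 with no filter or without a trend, nor Ephb3 without cytosol replicate 1. Mertk, the third of the Axl family, was low, at 17.1 and 13.0 in cytosol and 0 and 10.5 in migrasome, and did not pass (limma adjusted p = 0.11). It passed with a replicate block (limma adjusted p = 0.0072) and without migrasome replicate 2, the library that held its migrasome reads.

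Ryk, a Wnt receptor whose kinase domain is inactive, was at 1036 and 1268 in cytosol and 1475 and 1971 in migrasome, a log2 difference of 0.57 ± 0.23 that did not pass (limma adjusted p = 0.084). It passed with a replicate block (limma adjusted p = 0.026) and without migrasome replicate 1. Flt1, a receptor for vascular endothelial growth factor, was low, at 7.76 and 16.5 in cytosol and 18.4 and 21.1 in migrasome, without passing (limma adjusted p = 0.26). With Ddr2 left out, 15 of the 18 tested receptor tyrosine kinases fell and 0 rose, with a median log2 difference of -1.73.

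**Figure D3:**
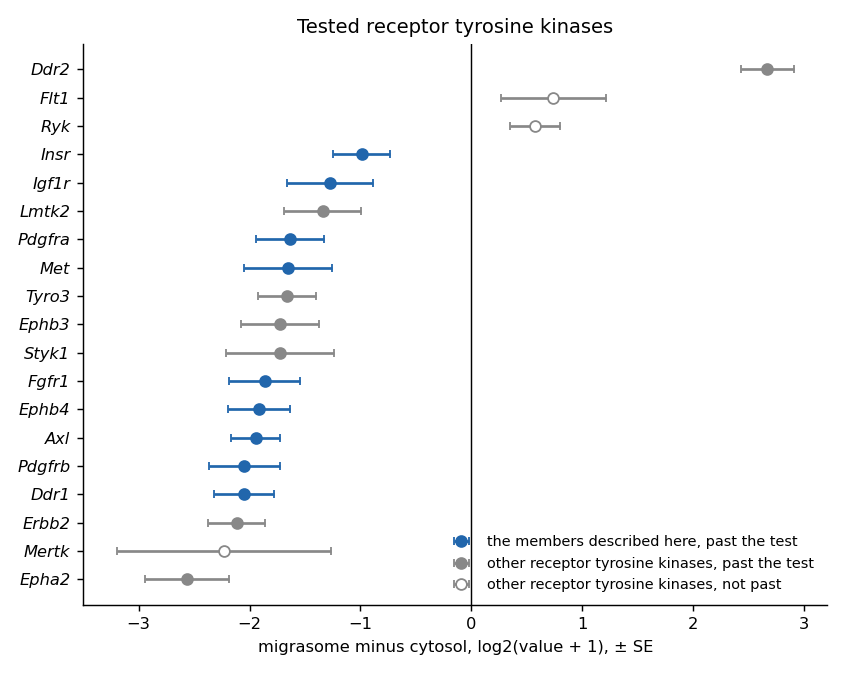
Migrasome minus cytosol difference (log2(value + 1), ± SE) of the 19 tested receptor tyrosine kinases, the members in blue and the others in grey, open where limma's test was not passed. Ddr2, Flt1 and Ryk lie above 0 and all 9 members below it.

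Ligands of these receptors are secreted or membrane-bound. Of 24 ligands 9 were tested, and 5 fell, 0 rose and 4 did not pass (median log2 difference -0.89). The share that fell was 55.6%, beside 17.7% of all tested genes. As 8.68% of all tested genes rose, 0 among 9 says little. None rose at an unadjusted p, with edgeR or with DESeq2 either. Efnb1 and Efnb2, ephrin-B ligands of Eph receptors, had log2 differences of -1.91 ± 0.34 and -1.27 ± 0.30. Hbegf, a ligand of Egfr, fell by 1.72 ± 0.52 on the log2 scale, from 195 and 341 in cytosol to 39.6 and 151 in migrasome. Its difference was -0.76 without migrasome replicate 1, where it no longer passed, and -2.67 without migrasome replicate 2. DESeq2 did not call it (adjusted p = 0.25), nor did limma with no filter, with quantile normalization or without a trend. Pdgfa, a ligand of Pdgfra, fell by 1.23 ± 0.20 on the log2 scale, and Fgf7 by 0.89 ± 0.22. Without cytosol replicate 1 the count that fell was 3, since Fgf7 and Efnb2 no longer passed. Fgf7 did not pass without cytosol replicate 2 either. The median of the list was -1.30 without migrasome replicate 2 and -0.30 with no filter, where more genes entered it.

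The mRNAs of the proteins that carry the signal inside the cell showed no common fall. Of 38 cytoplasmic adaptors and signal proteins 34 were tested, and 1 rose, 0 fell and 33 did not pass by limma (median log2 difference 0.01). Both shares lie below those of all tested genes, of which 8.68% rose and 17.7% fell. At an unadjusted p of 0.05, 4 were higher and 4 lower; edgeR called 2 higher and 1 lower, and DESeq2 3 higher and 0 lower. Scaling every library to the same total gave 0 higher and 5 lower. Leaving out a library gave between 0 and 4 higher and between 0 and 3 lower, the most of both without migrasome replicate 2. A replicate block gave 4 higher and 4 lower. The median was -0.26 with the same total, a scaling that moved the median of all genes by -0.27. Ptpn11, the one that rose, stood at 2396 and 2226 in cytosol and 4171 and 3656 in migrasome, a log2 difference of 0.76 ± 0.21 (limma adjusted p = 0.025). That call was lost with quantile normalization, with every library scaled to the same total, with no filter, without a trend and without either cytosol library. The GTPase gene Nras stood at 3529 and 3301 in cytosol and 4544 and 4543 in migrasome, and the kinase Akt1 at 1624 and 1650 and at 2052 and 2024, neither passing. The adaptor Crk stood at 1861 and 1884 in cytosol and 1469 and 1298 in migrasome, without passing, although it passed as lower with the same total and with quantile normalization.

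Of 32 non-receptor tyrosine kinases, which lack a membrane-spanning part, 18 were tested, and 2 rose, 4 fell and 12 did not pass (median -0.14). The share that fell, 22.2%, is near the 17.7% of all tested genes, of which 8.68% rose. Fer rose by 1.14 ± 0.25 on the log2 scale and Jak1, which works with cytokine receptors, by 0.92 ± 0.24. Yes1 (-0.99 ± 0.25) and Abl1 (-0.96 ± 0.24) fell. Jak1 did not pass with no filter, with the same total or without a trend. Abl1 did not pass without a trend, nor Yes1 with quantile normalization. Without cytosol replicate 1, only Abl1 of the 18 fell, and without cytosol replicate 2, 0 fell and Jak1 did not pass. Without migrasome replicate 2, 4 rose. Quantile normalization left 3 higher and 1 lower, and scaling to the same total 1 higher and 6 lower. Focal adhesion kinase, Ptk2, stood at 838 and 859 in cytosol and 1006 and 898 in migrasome without passing.

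Of 26 genes grouped here as negative regulators of the receptors 23 were tested, and 2 rose, 8 fell and 13 did not pass (median -0.20). The grouping is loose, and whether each gene acts that way in these cells was not tested. The share that rose is near the 8.68% of all tested genes, and the share that fell was 34.8% beside 17.7%. The ubiquitin ligase genes Nedd4 (1.06 ± 0.24) and Cbl (0.86 ± 0.26) rose. Neither passed without cytosol replicate 2. Nedd4 also did not pass without cytosol replicate 1 or with quantile normalization, where it was 0.43, nor Cbl without migrasome replicate 2, with no filter, with the same total or without a trend. Among those that fell were the transmembrane proteins Lrig1 (-1.93 ± 0.27), Lrig2 (-1.34 ± 0.41) and Lrig3 (-3.18 ± 0.57), with Lrig3 at 94.6 and 98.1 in cytosol and 4.24 and 21.1 in migrasome. The other genes that fell encode proteins without a membrane span: Spry2 (-1.08 ± 0.33), an inhibitor of Ras signalling, the phosphatases Dusp4 (-0.88 ± 0.24) and Dusp6 (-1.01 ± 0.26), the adaptor Sh2b3 (-0.87 ± 0.24) and the cytokine signalling inhibitor Socs3 (-1.32 ± 0.27). These 5 and Lrig2 were named after their values were seen. Among the 13 that did not pass were Spred1 (0.73 ± 0.25), Usp8 (0.61 ± 0.20), Ptpn2 (0.40 ± 0.22), Nf1 (0.40 ± 0.19) and Errfi1 (-0.56 ± 0.42), all among the most abundant of the list. In this list edgeR called 3 higher and 8 lower, and DESeq2 4 higher and 7 lower. The calls of Lrig1, Lrig3 and Socs3 held under every alternative, those of the other genes that fell did not, and the number that fell was 4 without either cytosol library. Of 19 receptor tyrosine phosphatases 4 were tested: Ptprs (-1.58 ± 0.24) and Ptpra (-0.91 ± 0.20) fell, Ptpre did not pass (limma adjusted p = 0.095, and 0.042 with a replicate block and 0.039 with the same total), and Ptprz1 rose from 4.65 and 3.43 to 19.8 and 17.1, on few reads. Both cytosol values of Ptprz1 lay below the 10 that the filter asks for, so it was tested only because it was high in migrasome. Ptpra did not pass without cytosol replicate 2, and Ptprz1 passed neither without a cytosol library nor with DESeq2.

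Other surface receptors with a single membrane span fell as well. Of 36 genes 31 were tested, and 26 fell, 0 rose and 5 did not pass. The share that fell was 83.9%, beside 17.7% of all tested genes, of which 8.68% rose. At an unadjusted p, with edgeR and with DESeq2, 0 were higher as well. Without migrasome replicate 1 the activin receptor gene Acvr2b, at 20.9 and 18.5 in cytosol and 9.90 and 46.1 in migrasome, was called higher, a gene named after its values were seen. The median log2 difference of the list was -1.47, beside -1.86 for the 9 members, and the difference between these medians was not tested. Tfrc, the transferrin receptor, had a log2 difference of -2.04 ± 0.24, Plxna1, a semaphorin receptor, of -2.12 ± 0.27, Tnfrsf1b, a receptor for tumour necrosis factor, of -2.21 ± 0.46 (-1.41 without migrasome replicate 1), and the endocytic receptor Lrp1 of -1.43 ± 0.22. Summed over the list, these receptors stood at 18823 and 18017 in cytosol and at 5244 and 8179 in migrasome replicates 1 and 2, again with replicate 2 above replicate 1.

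**Figure D4:**
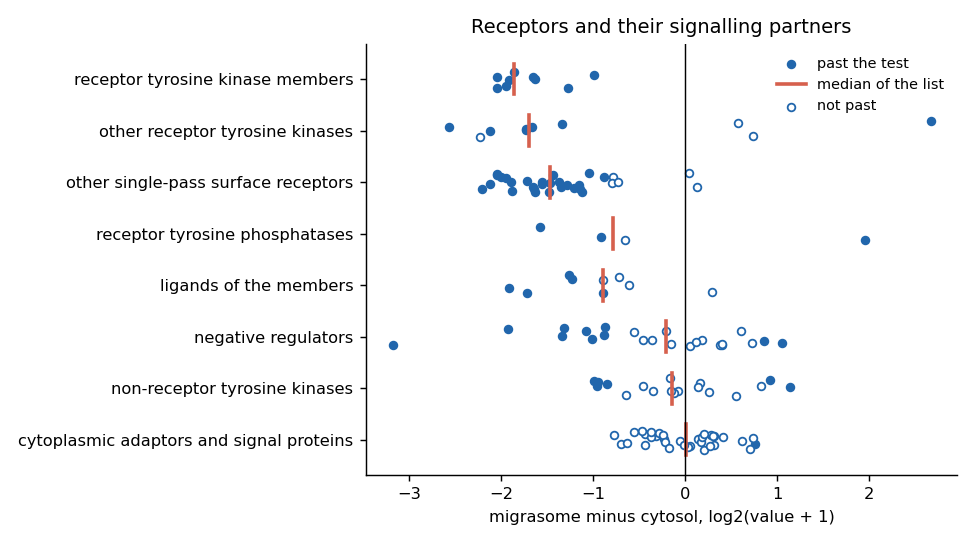
Migrasome minus cytosol difference (log2(value + 1)) of every tested gene of 8 lists, filled where limma's test was passed, with the median of each list in red. The medians of the members, of the other receptor tyrosine kinases and of the other single-pass receptors lie between -1.86 and -1.47, that of the receptor tyrosine phosphatases at -0.79 and that of the cytoplasmic adaptors and signal proteins at 0.01.

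The start of the coding sequence was then read in the same way for all tested protein-coding genes with an annotated start, 9976 in all. With few T-middle codons (at most 3 in any 10 successive codons) the median log2 difference was 0.03 and 13.0% fell. With 6 it was -0.40, with 7 it was -1.13 and with 8 it was -1.53, and the shares that fell were 32.0%, 58.2% and 68.8%. Of the 9 members 7 had 6 or more, as had 15.9% of all genes read, 24 of the 31 other single-pass receptors and 2 of the 34 cytoplasmic adaptors and signal proteins. Axl and Ephb4 had 4, and among genes with 4 or 5 the median log2 difference was 0.09 and 12.3% fell. Ddr2, with 10 (printed above beside Ddr1), was 1 of 6 genes at that count, of which 4 fell and 1, Ddr2 itself, rose. The count of codons is a property of the letters, not a measured signal sequence, and it was chosen with the differences known. Whether the place of translation bears on the differences was not tested.

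**Figure D5:**
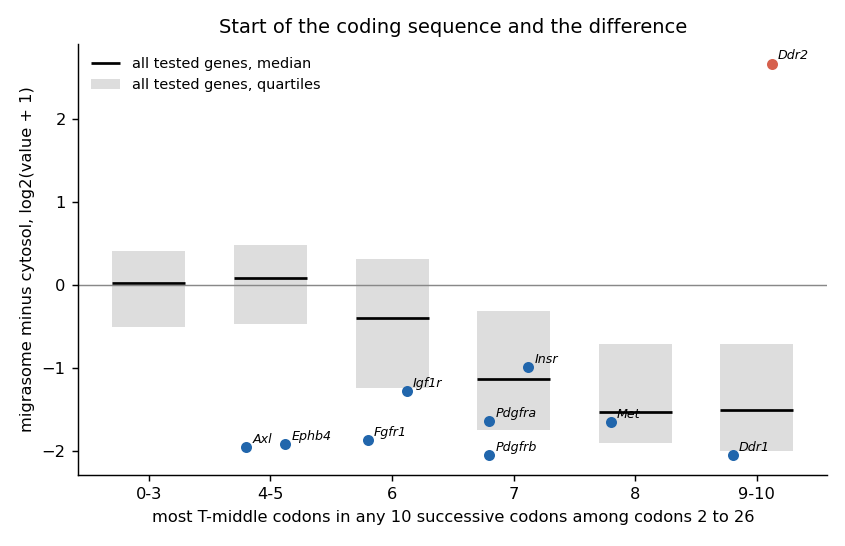
Migrasome minus cytosol difference (log2(value + 1)) of all tested protein-coding genes by the largest number of T-middle codons in any 10 successive codons among codons 2 to 26 (grey boxes, quartiles, and black lines, medians), with the members in blue and Ddr2 in red. The medians lie at 0.03 and 0.09 up to 5 such codons and at -1.53 and -1.51 from 8 codons on, and Axl and Ephb4 lie below their box while Ddr2 lies above its own.

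The tested genes whose values over the 4 libraries were closest to those of Axl were Pcyox1, Serpinh1 and Fads3 (Euclidean distances of 0.032, 0.044 and 0.047 between log2 values centred on each gene's mean), with log2 differences of -1.92, -1.90 and -1.99. Within a distance of 0.25 of Axl lay 145 of the 10860 tested genes.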

How the data were processed

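RNA of purified migrasomes and of cytosol was sequenced in 2 libraries each, grouped by the sample titles. Per the submitters' processing notes, the authors used cutadapt, Trimmomatic, FastQC, STAR, HTSeq and DESeq with the build GRCm38; no source used here gives their versions, the annotation, the strand setting or the treatment of multi-mapped reads. The table deposited holds 1 signal per gene and library: judged from the values, gene counts that the authors divided by a size factor. Division by the smallest nonzero value of a library gave whole numbers (tolerance 0.001) for 100% of values, and these were taken as reads.

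Genes that reached a value of 10 in 2 or more libraries were tested on log2(value + 1) with limma 3.58.1 in R 4.3.3, using a trended eBayes fit and no replicate block. Benjamini-Hochberg adjustment ran over all tested genes, with a threshold of 0.05. The test was first tried on simulated data. With 2 libraries a group, an exact permutation test of 1 gene has a smallest p of 0.33, so each call borrows the spread of other genes. The alternatives included edgeR 4.0.16 and DESeq2 1.42.0 on the recovered reads.

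The members and lists were chosen with earlier results of these data known. The text names all members, all tested receptor tyrosine kinases and, in other lists, some of the 6 most abundant and of the 2 largest called differences each way, and the genes nearest to the most abundant member. A further marker gene of the lists is not reported here. Of the table's symbols, 47142 were found in GENCODE M21. Coding starts came from the transcript with the best APPRIS rank and then the longest coding sequence. Figures were drawn with matplotlib 3.10.9.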

Additional observations from a re-analysis of the deposited data

How the results depend on the processing

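Under 14 alternatives, the 9 tested members kept a negative difference in all 126 fits. In many of these the sign could not change. Both migrasome libraries lay below both cytosol libraries for all 9, so leaving out a library had to keep it. The filter, the trend and the replicate block change the test but not the difference. The number that fell was between 7 and 9 and the number that rose was 0. The 9 lost calls were those of Igf1r (no filter, quantile normalization, no trend, without migrasome replicate 1), Insr (quantile normalization, without either cytosol replicate) and Met (no filter, no trend). Scaling to the same total moved the median of all genes by -0.27 and quantile normalization by 0.12, so part of each member's shift under them is shared by all genes.

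Over all genes 943 rose and 1919 fell, against 322 and 2522 with the same total per library and 1194 and 1403 with quantile normalization. The number that rose was 393 with no filter and 483 without a trend. Leaving out each library in turn gave between 231 and 2085 that rose and between 1147 and 2800 that fell. In the 7 lists around the members 129 genes were tested, and 7 rose and 51 fell. Of all tested genes 8.68% rose and 17.7% fell, so the rises in the lists were no more frequent than elsewhere. Ptprz1, counted among those that rose, was tested only through its migrasome values. The number that rose was 4 with no filter, 4 with the same total and 4 without a trend, and leaving out each library gave between 2 and 12.

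With a replicate block 1802 genes rose over all, 14 of them in the lists. Deviations of same-numbered libraries correlated at 0.23 over genes, a hint from the data only, since no label ties the numbers to a shared culture or day. Differences that had not passed the test changed sign with quantile normalization for Akt1 (-0.012), Nras (-0.15) and Ptk2 (-0.0038), and for Ptk2 also with the same total (-0.11). The Acvr2b log2 difference, 0.13 by limma on all 4 libraries, was -0.13 with the same total, and between -0.93 and 1.19 without each library in turn. The members' migrasome values rest on 23 to 174 reads per library, which limits their precision.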
